A study of Mus musculus with 8 samples.

Results

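The transcription factor genes described here are Snai1, Snai2, Zeb1, Zeb2, Twist1, Twist2, Prrx1, Foxc2 and Tcf4. These 9 genes were taken by symbol from the 18251 genes of a read count table, and all 9 passed the filter on low counts. The samples were 8 subcutaneous tumours grown from MC38, a mouse colon cancer line, in C57 mice; the mice were 7 weeks old and male. The cells of both groups carried TetOn-CXCL14, a construct that makes the chemokine CXCL14 when the tetracycline analogue doxycycline (DOX) is given. The 4 DOX tumours came from mice whose drinking water held DOX at 1 mg/mL over 3 days, and the 4 control tumours, of the same genotype, were left untreated. A volume of 300 mm³ appears in the labels for the start of DOX and again for the harvest, so tumour size at either time is uncertain. No tumours of cells without the construct given DOX are among the samples, so effects of DOX and of CXCL14 cannot be told apart. The labels do not say whether the line is 1 clone.

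These factors are the proteins known for driving the epithelial-mesenchymal transition (EMT), in which epithelial cells lose their junctions and polarity and take on a migratory, matrix-producing state. The zinc finger proteins of the Snail family (Snai1, Snai2) and the Zeb family (Zeb1, Zeb2) bind E-boxes in the promoters of epithelial genes and recruit corepressors there. The Twist proteins and Tcf4 are basic helix-loop-helix proteins, which bind DNA as dimers, while Prrx1 is a homeobox factor and Foxc2 a forkhead factor. In a tumour the same genes are also used by cells that are not cancer cells: Prrx1, Twist1 and Twist2 by fibroblasts, Zeb2 by macrophages and lymphocytes, and Tcf4 by plasmacytoid dendritic cells. In bulk RNA, fewer cells of a type and less RNA per cell cannot be told apart.

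The E-box that the Snail and Zeb proteins are known to bind is CACCTG, read as CAGGTG on the other strand, and both forms were searched in the 300 bases around gene starts in RefSeq's GRCm38.p6 (250 before to 50 after). The 6-letter motif stood in 20.2% of all 32851 such windows. Windows of 5 of the 9 factors were searched, 8 windows in all: Snai1, Zeb2, Twist1, Twist2 and Prrx1. Zeb1 and Tcf4 were left out of this search, so whether they have windows or the motif is not shown. Of these 8, the Snai1 window held the motif. Of the listed epithelial genes that the factors are known to repress, 19 had windows, 26 in all, and 19 of the 26 (73.1%) held the motif; of 17 windows of listed mesenchymal genes 2 did (11.8%). The epithelial list was drawn up from known targets, some of them known for their E-boxes, and windows of 1 gene can overlap, so these shares are descriptions. The windows of Snai1 and of Crb3 and Epcam, epithelial genes at the other end of the pathway, are shown because they hold the site and because the tumours had high Snai1 and almost no Crb3 or Epcam RNA. Capitals mark the motif. The Snai1 window, chr2:167537945-167538244 on the plus strand, held 1, at base -126 from the gene start:
Snai1: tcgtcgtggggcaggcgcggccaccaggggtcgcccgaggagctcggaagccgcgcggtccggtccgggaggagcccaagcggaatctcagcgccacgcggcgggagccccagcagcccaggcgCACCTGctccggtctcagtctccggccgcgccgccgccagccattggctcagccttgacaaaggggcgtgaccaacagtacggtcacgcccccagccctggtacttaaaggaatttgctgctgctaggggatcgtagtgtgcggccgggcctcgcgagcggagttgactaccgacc
The Crb3 window, chr17:57061951-57062250 on the plus strand, held 4, at bases -118, -63, -7 and 26. Crb3 has a second window from a later start, chr17:57061981-57062280, which overlaps the first and holds the same sites at -148, -93, -37 and -5; the first is shown:
Crb3: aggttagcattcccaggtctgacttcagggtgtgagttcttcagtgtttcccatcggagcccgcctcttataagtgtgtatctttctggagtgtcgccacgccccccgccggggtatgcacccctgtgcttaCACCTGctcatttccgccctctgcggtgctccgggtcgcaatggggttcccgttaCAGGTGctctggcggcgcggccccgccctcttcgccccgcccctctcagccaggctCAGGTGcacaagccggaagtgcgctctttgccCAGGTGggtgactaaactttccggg
The Epcam window, chr17:87635729-87636028 on the plus strand, held 2, at bases -187 and -19:
Epcam: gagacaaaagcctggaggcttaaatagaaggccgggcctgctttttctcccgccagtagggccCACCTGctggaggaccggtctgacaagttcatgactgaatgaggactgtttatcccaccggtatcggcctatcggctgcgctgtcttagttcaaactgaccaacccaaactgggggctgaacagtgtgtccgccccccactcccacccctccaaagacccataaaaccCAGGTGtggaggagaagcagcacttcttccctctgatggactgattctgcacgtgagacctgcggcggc

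In GRCm38.p6, Snai1 (167538195 to 167542814) and Zeb2 (44983512 to 45117442) lie on chromosome 2, Twist2 (91801461 to 91848034) and Prrx1 (163245119 to 163315145) on chromosome 1, and Zeb1 (5591327 to 5775468) and Tcf4 (69343429 to 69687967) on chromosome 18. Foxc2 lies on chromosome 8 (121116171 to 121118895), Twist1 on chromosome 12 (33957671 to 33959831) and Snai2 on chromosome 16 (14705852 to 14709395). Each value is the total of a gene over its exons. In the GENCODE annotation of GRCm38, exons of Zeb2, Zeb1 and Twist2 overlap genes on the opposite strand (Zeb2os and Gm27761, Gm10125, and Gm29100), and whether counting used strand is not given, so such reads may not have been separated.

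Read depth was even, at 18685975 to 19307481 counts per tumour. Most of the extreme values below belong to 2 libraries. Control tumour 1 had the highest level of 5 of the 9 factors, and DOX tumour 4 had the lowest level of 4 and the highest of 2. On the first principal component of all tested genes DOX tumour 4 lay at one end (43.1) and control tumour 1 at the other (-27.3), while DOX tumour 1 (-10.5) lay among the controls (-27.3 to -9.35). Cxcl14, the induced gene, stood at 9.34, 9.69, 8.30 and 9.59 CPM (library-scaled read counts, with TMM factors) across the controls, tumours 1 to 4, and at 30.1, 30.2, 20.3 and 15.8 CPM across the DOX group in the same order. Its log2 fold change was 1.38 ± 0.20 (SE) and its edgeR adjusted p 0.387, so the induced gene itself was not called, although it had the second smallest p of all tested genes. The 1 gene called was Adgrg1, an adhesion receptor gene, at 2.57 to 3.996 CPM in the controls and 28.6 to 40.7 CPM in the DOX group (log2 fold change 3.38 ± 0.18, SE, edgeR adjusted p = 6.82e-05). Values per tumour are given in the order 1 to 4 throughout.

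The tumours of both groups had high RNA levels of most EMT factors and little RNA of most listed epithelial genes. Levels of different genes are compared here in FPKM, the authors' values scaled to gene length and library size. Snai1 was first in order, with a median of 53.7 FPKM over the 8 tumours (35.3 to 69.0), above the median level of 91.5% of the genes in the table. Twist1 followed with 37.3 FPKM (32.3 to 40.04), then Zeb1 with 33.8 (24.8 to 36.8), Prrx1 with 30.3 (27.9 to 42.6) and Twist2 with 27.4 (25.7 to 28.6). Tcf4 stood at 17.1 FPKM (11.9 to 21.2) and Zeb2 at 11.6 (10.9 to 14.01). Snai2, the Snail family member also called Slug, was low at 4.50 FPKM (3.85 to 7.46), and Foxc2 was last at 3.53 (2.85 to 4.27).

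The ranges of neighbours in this order overlapped in all but 2 of its steps, from Twist2 down to Tcf4 and from Zeb2 down to Snai2. DOX tumour 4 decides much of that overlap: without it, 5 steps were free of overlap. Within tumours the order was steadier. Snai1 lay above Twist1 in 8 of 8 tumours, Twist1 above Zeb1 in 7 and Zeb1 above Prrx1 in 6.

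Relatives differed in level. The ratio of Snai1 to Snai2 in FPKM was 6.71, 17.8, 17.2 and 11.3 in the controls and 11.8, 12.2, 10.8 and 7.63 in the DOX group. Control tumour 1 had the lowest ratio, and the groups overlapped. Twist1 exceeded Twist2 by a ratio of 1.17 to 1.48 in all 8 tumours. Zeb2 was at 0.301, 0.307, 0.343 and 0.368 of the Zeb1 level in the controls and at 0.321, 0.443, 0.366 and 0.548 of it in the DOX group. DOX tumours 2 and 4 lay above all controls in that ratio and DOX tumours 1 and 3 among them. These 3 ratios were chosen after their values were seen. The Zeb2 to Zeb1 ratio had a control mean of 0.330 ± 0.0316 and a DOX mean of 0.419 ± 0.0996 (SD, n = 4 each). The test used log2 ratios, whose group means differed by 0.32 (exact two-sided permutation p = 0.143, adjusted p = 0.429 over the 3 ratios). The smallest exact p for 4 against 4 is 0.0286, so a single ratio among 3 cannot go below an adjusted 0.0857, and this adjusted test had no means of passing 0.05 for 1 ratio alone.

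On the epithelial side, the list of genes repressed in the transition held 27 genes of the table, and 19 of them stayed under 1 FPKM in every tumour. Epcam, an epithelial adhesion molecule, had at most 7 counts in a tumour and a median of 0.065 FPKM, and Crb3, an apical polarity protein, at most 2 counts. Keratin gene Krt18 had at most 2 counts, and the splicing regulator gene Esrp1 at most 2. The highest members were the junction scaffold gene Tjp1, with a median of 15.5 FPKM, and the protease inhibitor gene Spint1, with 6.69, both of which other cell types also express. Cdh1, which encodes E-cadherin and is the best known target of these factors, had a median of 1.48 FPKM. On the mesenchymal side, 17 of the 27 listed genes exceeded 10 FPKM in every tumour and 0 of 27 stayed under 1. The intermediate filament gene Vim had a median of 1735 FPKM and the fibronectin gene Fn1 of 532, whereas the N-cadherin gene Cdh2 had 1.55. Markers of colon epithelium, the tissue in the cell line's label, were as low: of 10 in the table, 9 stayed under 1 FPKM in every tumour, among them Cdh17, Vil1 and Krt20. Cdx1, an intestinal homeobox gene, also stayed below it, with at most 0.03 FPKM. Of 12 listed epithelial transcription and splicing factors that oppose the transition, 8 stayed under 1 FPKM in every tumour. The highest was Klf4, a zinc finger factor known in epithelium and also in other cell types. Its median was 51.5 FPKM (44.6 to 64.7), close to Snai1. Grhl1, Foxa1 and Gata3 reached at most 1.04, 1.16 and 1.57 FPKM. Between the groups 0 of the 4 tested members of that list passed, and Klf4 had a log2 fold change of -0.18 ± 0.11 (SE, edgeR adjusted p = 0.570).

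**Figure D1:**
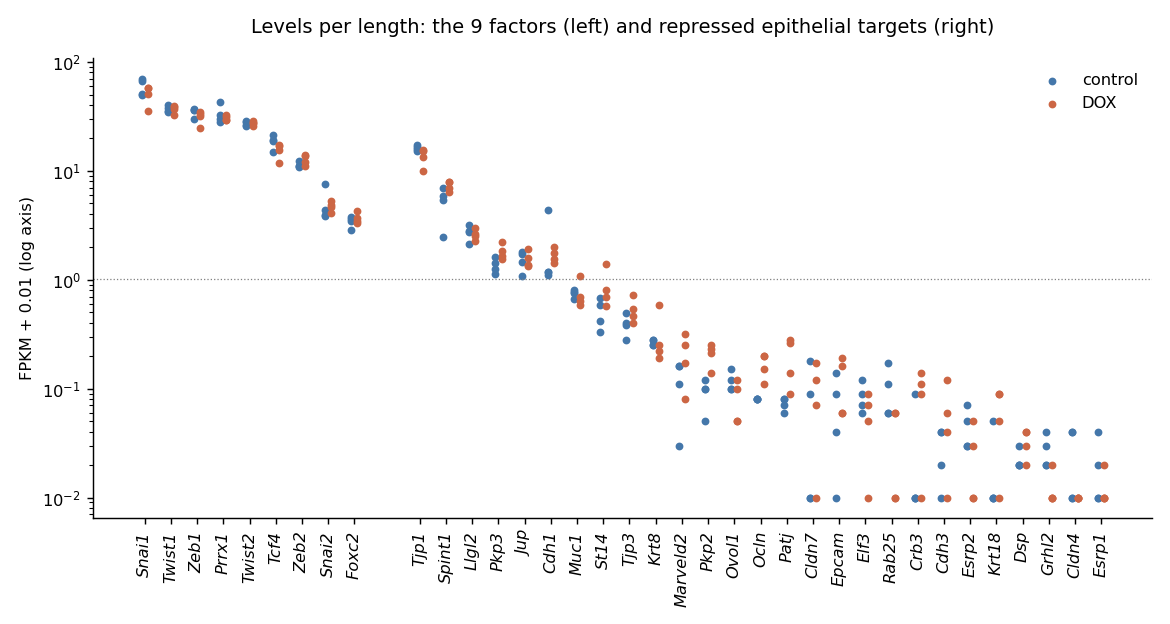
RNA level per length (FPKM + 0.01, log axis) of the 9 EMT factors, left, and of the 27 listed epithelial genes, right, each ordered by median; every point is 1 tumour, blue for control and orange for DOX, and the dotted line marks 1 FPKM. All 9 factors lie above 1 FPKM in every tumour, and 19 of the 27 epithelial genes lie below it in every tumour.

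The comparison of DOX with control tumours asks whether the inducible chemokine changes the EMT programme, which the series' title names. None of the 9 factors passed an adjusted p of 0.05 in either direction in edgeR's quasi-likelihood test (0 of 9), where 0.00744% of the 13436 tested genes did. DESeq2 also called 0 of 9, against 0.618% of the genes it tested. Without adjustment 0 of 9 had p under 0.05, where 11.6% of tested genes did, 7.65% as higher and 3.95% as lower in DOX tumours. In 0 of 9 were the 2 groups free of overlap in CPM, against 5.66% of tested genes. In the DOX group 6 of the factors lay lower and 3 higher, and the median of their log2 fold changes was -0.06, beside -0.01 for all tested genes.

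Snai1, a repressor of Cdh1, stood at 81.2, 107, 102 and 77.6 CPM in the controls and 88.7, 78.1, 89.7 and 57.2 CPM in the DOX group. DOX tumour 4 was lowest and control tumours 2 and 3 highest, and the other tumours of both groups mixed. The log2 fold change was -0.23 ± 0.16 (SE), with a 95% interval of -0.60 to 0.13 and an edgeR adjusted p of 0.599. Without DOX tumour 4 the fold change was -0.10. Snai2 had 15.2, 7.62, 7.52 and 8.68 CPM in the controls and 9.47, 8.04, 10.4 and 9.46 CPM in the DOX group. Control tumour 1 stood apart and every other control lay within or just below the DOX range. Its log2 fold change of -0.06 ± 0.23 (SE, interval -0.57 to 0.44, edgeR adjusted p = 0.934) became 0.24 without that tumour. The interval of Snai2 is the widest of the 9, on a gene with 145 to 279 counts per tumour.

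Zeb1 was at 198, 187, 187 and 156 CPM in the controls and 178, 165, 173 and 133 CPM in the DOX group. Number 4 of each group was the low tumour of that group, and control tumour 4 lay below 3 of the DOX tumours. The log2 fold change was -0.16 ± 0.10 (SE, interval -0.40 to 0.07, edgeR adjusted p = 0.567), and without DOX tumour 4 it was -0.08. Zeb2, the relative that macrophages and lymphocytes also express, lay on the other side of 0. It stood at 103, 99.3, 110 and 99.4 CPM in the controls and 98.8, 126, 110 and 128 CPM in the DOX group. DOX tumours 2 and 4 were above all controls, and DOX tumour 1 was below them all. The log2 fold change was 0.17 ± 0.09 (SE, interval -0.03 to 0.36, edgeR adjusted p = 0.481).

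Beside the Zeb2 values, all 12 macrophage markers lay on the higher side in DOX tumours, as did 6294 of the 13436 tested genes. Of the 12, 9 had an unadjusted edgeR p under 0.05 as higher, against 7.65% of tested genes, with 0 past adjustment. Their summed level was 2019 to 2326 CPM in control and 2655 to 4706 CPM in DOX tumours, and none was at 0. The macrophage score, the mean log2 CPM of the list, was 6.69, 6.70, 6.71 and 6.74 in the controls and 6.89, 7.30, 7.03 and 7.74 in the DOX group. The 2 DOX tumours with the highest score, tumours 4 and 2, were also the 2 with the highest Zeb2. The DOX tumour with a score of 6.89, above all controls, had the lowest Zeb2 of all tumours, 98.8 CPM. The DOX tumour with a score of 7.03 lay within the control range of Zeb2, at 110 CPM. On deviations from the group means, score and Zeb2 had r = 0.82 (exact permutation within groups, p = 0.106, adjusted p = 0.442). Without DOX tumours 2 and 4, r of the levels themselves, not of deviations, was 0.32 over the remaining tumours. That value spans both groups, whose scores still did not overlap, so it is not a counterpart of the 0.82. T and NK cell markers summed to 33.6 to 79.0 CPM in control and 81.9 to 259 CPM in DOX tumours, with 11 of 11 on the higher side. How much of the Zeb2 values came from macrophages, T cells or NK cells was not tested.

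Among the helix-loop-helix factors, Twist1 and Twist2 hardly varied. Twist1 stood at 65.3, 59.0, 54.3 and 55.4 CPM in the controls and 61.2, 57.6, 60.2 and 52.7 CPM in the DOX group, with a log2 fold change of -0.01 ± 0.08 (SE, interval -0.19 to 0.16, edgeR adjusted p = 0.959). Twist2 ran from 32.7 to 36.9 CPM in control and from 33.1 to 36.6 CPM in DOX tumours. Its highest tumour had 1.13 times the level of its lowest, the narrowest spread of the 9, and its log2 fold change was 0.01 ± 0.07 (SE, interval -0.14 to 0.16, edgeR adjusted p = 0.959). For both Twist genes the interval leaves out changes beyond 0.19 on the log2 scale in either direction.

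Tcf4, an E protein that pairs with other helix-loop-helix factors, had the largest fold change of the 9 in either direction. Its level was 142, 150, 131 and 106 CPM in the controls and 120, 112, 123 and 88.0 CPM in the DOX group. Of the controls 3 lay above all DOX tumours, and control tumour 4 lay below 3 of them. The log2 fold change was -0.25 ± 0.13 (SE, interval -0.55 to 0.04, edgeR adjusted p = 0.472), and -0.16 without DOX tumour 4. The plasmacytoid dendritic cell markers, of a cell type known for high Tcf4, had 0 of 5 tested members at an unadjusted edgeR p under 0.05. Their median log2 fold change was 0.19. The sum of these markers was 139 to 336 CPM without DOX and 193 to 277 CPM with it. Most of that sum was 1 gene, Bst2, at 129 to 306 CPM without DOX and 174 to 255 CPM with it. The sum therefore says little about the other markers. Siglech, the defining gene, was low (means ± SD of 4 tumours: 0.544 ± 0.173 CPM without DOX, 0.708 ± 0.348 CPM with it).

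Prrx1, a homeobox factor of mesenchymal cells, stood at 212, 155, 134 and 144 CPM in the controls and 148, 140, 141 and 163 CPM in the DOX group. Control tumour 1 was highest and the other 7 tumours mixed. The log2 fold change of -0.13 ± 0.14 (SE, interval -0.43 to 0.18, edgeR adjusted p = 0.749) was 0.03 without that tumour. Foxc2, a forkhead factor of mesenchyme and lymphatic vessels, ran from 7.87 to 10.0 CPM in control and from 8.72 to 11.8 CPM in DOX tumours. DOX tumour 4 was highest and control tumour 1 lowest, and its log2 fold change was 0.11 ± 0.13 (SE, interval -0.18 to 0.39, edgeR adjusted p = 0.776), or 0.01 without DOX tumour 4.

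The fibroblast markers did not lie on one side. Of 14, 5 were higher and 9 lower in the DOX group, at a median log2 fold change of -0.07 and with 0 past adjustment, and their score overlapped between the groups (4.96 to 5.82 in control, 5.32 to 5.93 in DOX). Thy1, which mouse T cells also carry, was higher in every DOX tumour, at 38.5 to 102 CPM against 28.7 to 36.2 CPM (log2 fold change 1.00 ± 0.27, SE, edgeR adjusted p = 0.387). Skeletal muscle markers, of a tissue next to the tumours, lay higher in 13 of 13, with sums of 3.77 to 73.7 CPM in control and 27.1 to 226 CPM in DOX tumours; their part in the values of the 9 factors was not tested.

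**Figure D2:**
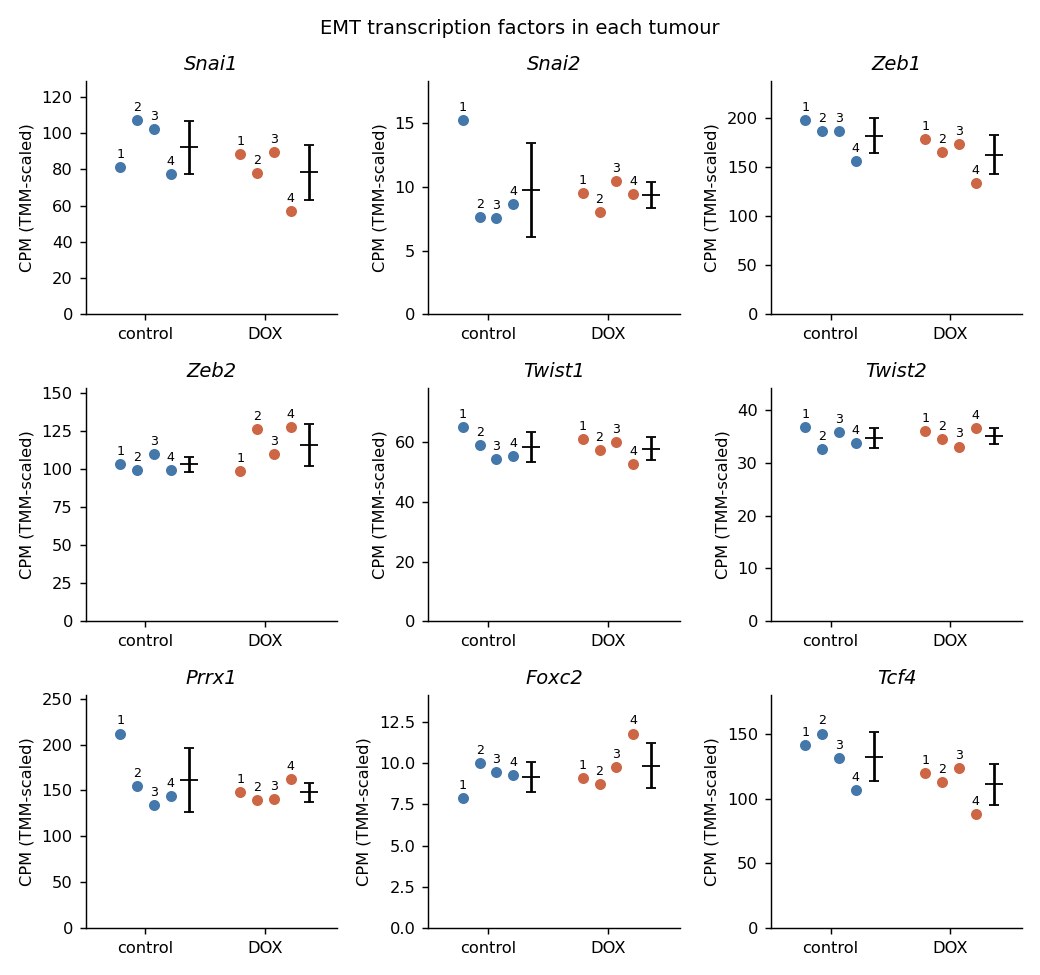
Level of each EMT factor (CPM, TMM-scaled, axes from 0) in the 4 control tumours (blue) and the 4 DOX tumours (orange), with tumour numbers; the bars show the group mean ± SD. The groups overlap in all 9 panels, and control tumour 1 stands apart in Snai2, at 15.2 CPM against 7.52 to 8.68 in the other controls.

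**Figure D3:**
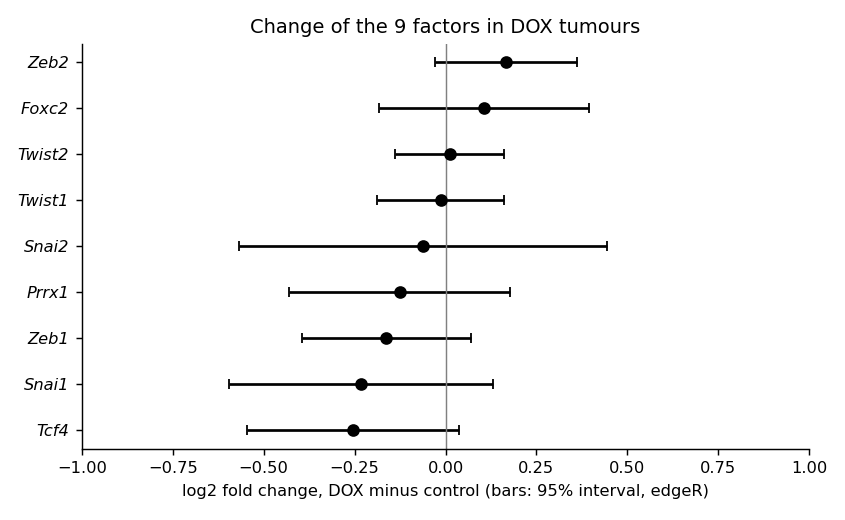
Log2 fold change of the 9 factors, DOX minus control, with 95% intervals from edgeR, ordered by size from Tcf4 at -0.25 to Zeb2 at 0.17. All 9 intervals include 0.

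Across the 8 tumours, Zeb1 and Tcf4 varied together. Of the 36 pairs among the 9 factors, theirs was the 1 pair past adjustment, with Pearson r = 0.957 (exact permutation p = 0.000397, adjusted p = 0.0143 over the 36) and Spearman rho = 0.905 (exact permutation p = 0.00456, adjusted p = 0.164). Without control tumour 1 and DOX tumour 4, the tumours farthest from the median Zeb1 level, r was 0.898. On deviations from the group means r was 0.944 (exact permutation within groups, p = 0.0174, adjusted p = 0.354). Among 10193 other genes with mean log2 CPM above 3, 14 had at least this r with Zeb1 and 19 with Tcf4, so the pair is not the closest for either gene. The next pair, Snai1 and Tcf4, had r = 0.873 and rho = 0.857 (exact permutation p = 0.00635 and 0.0107, adjusted p = 0.114 and 0.193), and r fell to 0.48 without control tumour 2 and DOX tumour 4. The deposited counts of Zeb1, Tcf4, Prrx1 and Snai2 were whole numbers in 0 of 8 libraries and those of Foxc2 in 4 of 8. Counts that are not whole can arise where a counting tool divides reads between genes; whether that holds here was not tested, and the levels of these 5 genes are less certain. Snai1, Zeb2, Twist1 and Twist2 had whole counts in 8 of 8. Of genes named in other paragraphs, Tcf12, Kdm1a, Gsk3b, Wnt5a, Cdh2 and Siglech also had whole counts in 0 of 8.

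Against the scores of fibroblast, macrophage and endothelial markers, 0 of 27 relations passed adjustment, with a smallest adjusted p of 0.149 (exact permutation). No coefficient over all tumours is given for the macrophage score, since its groups did not overlap. On deviations from the group means, tested by exact permutation within groups, 2 of the 27 relations passed: the macrophage score with Zeb1 (r = -0.80) and with Twist1 (r = -0.66), at an adjusted p of 0.0469 each. The controls hardly varied in that score (6.69 to 6.74), so both coefficients come mostly from the 4 DOX tumours. The p counts orderings of the controls as well, so it also depends on the order of these closely spaced scores. On FPKM the Zeb1 relation had an adjusted p of 0.0938 (exact permutation) and was no longer called, while that of Twist1 stayed at 0.0469. The genes most like each factor over the 8 tumours, given as a description, were Dctn4 and Vsig10 for Zeb1 (r = 0.989 and 0.977) and Spin1 and Fam114a1 for Tcf4 (0.981 and 0.978). For Snai1 they were Zdhhc2 and Ppp6r2 (0.986 and 0.984), and for Snai2 Cdca7l and Cyb5r1 (0.988 and 0.977). For Zeb2 they were Naip5, an innate immune receptor gene of macrophages, and Cd200r4, a myeloid receptor gene (0.980 and 0.965). Fah and Usp30 were most like Twist1 (0.964 and 0.962), Herpud2 and Ngrn most like Prrx1 (0.972 and 0.966), Arhgef1 and Ndufb10 most like Foxc2 (0.963 and 0.958), and Vps37b and Zfp512 most like Twist2 (0.932 and 0.928).

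**Figure D4:**
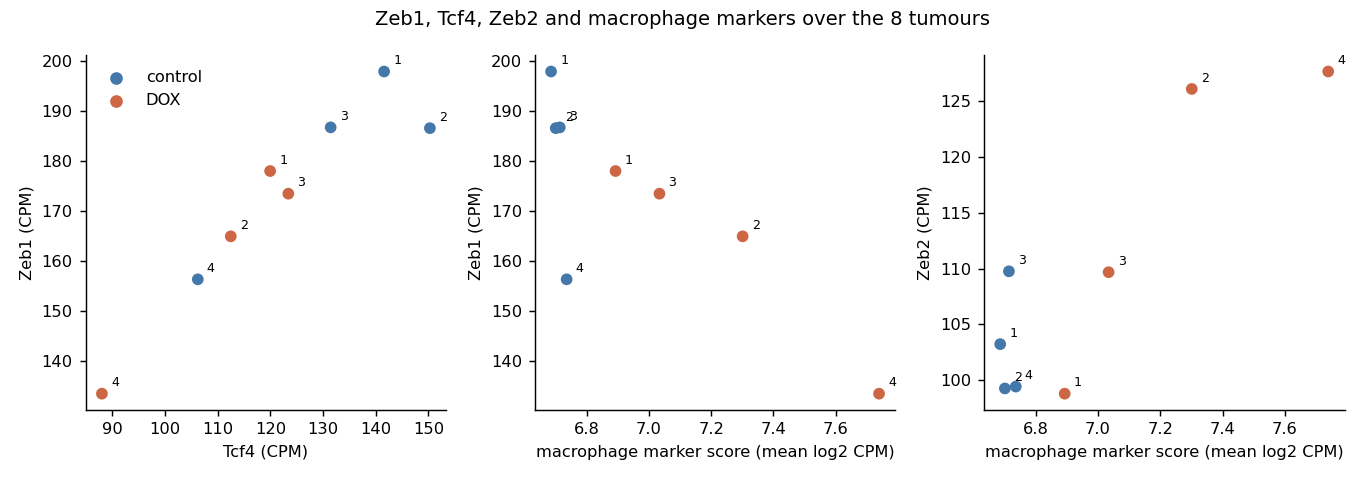
Left, Zeb1 against Tcf4 (CPM); centre and right, Zeb1 and Zeb2 (CPM) against the macrophage marker score (mean log2 CPM of 12 genes); every point is 1 tumour, blue for control and orange for DOX, with its number, and the axes do not start at 0. Zeb1 and Tcf4 are both lowest in DOX tumour 4, at 133 and 88.0 CPM, which also has the highest macrophage score, 7.74.

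The partners of the factors showed no call either. Of 6 genes for E proteins, which dimerise with Twist, and Id proteins, which block that pairing, 0 passed and 5 of 6 lay lower in DOX tumours. The E protein genes Tcf3 and Tcf12 had log2 fold changes of -0.03 ± 0.06 and -0.13 ± 0.08 (SE). Tcf12 lay lower in every DOX tumour, at 134 to 170 CPM against 171 to 183 CPM in controls, but narrowly (edgeR adjusted p = 0.564). Of all tested genes, 5.66% were free of overlap between the groups, and Tcf12 had whole counts in 0 of 8 libraries. Id2, an inhibitor that NK and innate lymphoid cells also need, was the exception in direction, at 44.2, 41.1, 42.6 and 41.8 CPM in the controls and 38.3, 60.5, 55.5 and 98.7 CPM in the DOX group. DOX tumour 1 lay below all controls and the other 3 above them, and the log2 fold change was 0.58 ± 0.24 (SE, edgeR adjusted p = 0.422). Id1 and Id3 had -0.08 ± 0.18 and -0.32 ± 0.23 (SE).

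Of 14 corepressor and chromatin partners 0 passed, 10 lay lower and the median log2 fold change was -0.07; the demethylase gene Kdm1a, which Snai1 recruits, had -0.17 ± 0.08 (SE) and the Polycomb gene Suz12 -0.10 ± 0.07 (SE). Of 12 genes for turnover of the Snail and Twist proteins 0 passed, 4 lay higher and 8 lower, with a median of -0.08. Pak1, a kinase known to phosphorylate Snail, was the 1 member with an unadjusted edgeR p under 0.05, against 11.6% of tested genes. It was higher in DOX tumours (0.24 ± 0.11, SE, edgeR adjusted p = 0.423). Gsk3b, the kinase that marks Snail for destruction, had -0.18 ± 0.09 (SE), and Btrc, which encodes the ubiquitin ligase subunit that then binds it, had -0.15 ± 0.07 (SE). Of 10 tested relatives and other EMT regulators 0 passed, 7 lay lower and the median was -0.19; Sox4 had -0.41 ± 0.15 (SE, edgeR adjusted p = 0.387), and Snai3, the third Snail gene, was below the filter, at 0.03 to 0.61 FPKM.

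Upstream, 0 of 22 tested ligands, receptors and mediators passed, with 7 higher, 15 lower and a median of -0.10. At an unadjusted p under 0.05 stood 4 members as higher and 2 as lower, against 7.65% and 3.95% of tested genes. Tgfb1, the TGF-beta ligand gene and a classic inducer of the transition, was at 120, 124, 117 and 105 CPM in the controls and 133, 131, 129 and 161 CPM in the DOX group. All DOX tumours lay above all controls, and the log2 fold change was 0.25 ± 0.09 (SE, edgeR adjusted p = 0.387). Notch1, a receptor gene that can induce Snail genes, stood at 34.4, 33.2, 38.5 and 25.7 CPM in the controls and 38.8, 40.2, 39.2 and 45.6 CPM in the DOX group. The groups met closely, at 38.5 and 38.8 CPM, and the log2 fold change was 0.31 ± 0.12 (SE, edgeR adjusted p = 0.390). Met, the receptor of hepatocyte growth factor, had -0.24 ± 0.08 and Wnt5a -0.18 ± 0.07 (SE, edgeR adjusted p = 0.387 and 0.394).

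Downstream, 0 of 9 tested epithelial targets and 0 of 27 mesenchymal targets passed, with medians of 0.04 and -0.07. Of the 9 epithelial genes 2 were higher and 1 lower at an unadjusted p under 0.05, against 7.65% and 3.95% of tested genes. The desmosome gene Pkp3 had 0.43 ± 0.18 (SE) and Tjp1 -0.27 ± 0.12 (SE), with edgeR adjusted p-values of 0.408 and 0.423. The membrane protease gene St14 had 0.76 ± 0.33 and its inhibitor gene Spint1 0.49 ± 0.26 (SE, edgeR adjusted p = 0.422 and 0.498). Cdh1 was at 19.8 CPM in control tumour 1, the tumour that was also highest in Snai2, Zeb1, Twist1, Twist2 and Prrx1. It was at 4.77 to 5.15 CPM in the other 3 controls, below the 6.06 to 8.62 CPM of the DOX tumours. Over all tumours the groups overlapped, and the log2 fold change of Cdh1 was -0.25 ± 0.47 (SE, edgeR adjusted p = 0.868). Among the mesenchymal genes, the contractile genes Tagln and Acta2 had the largest values, 2.93 ± 1.06 and 1.46 ± 0.57 (SE, edgeR adjusted p = 0.390 and 0.398); smooth muscle cells and pericytes express both, and both had whole counts in 0 of 8 libraries. Fn1 and Cdh2 had -0.28 ± 0.20 and -0.15 ± 0.17 (SE).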

How the data were processed

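Total RNA of 8 tumours was sequenced from mRNA libraries; per the labels' protocols 0.1 g of tissue was used. The authors deposited read counts per gene, which are expected counts (64.9% of values are whole within 0.005), and FPKM, scaled by the authors to gene length and library size, per the file headers. HISAT, Bowtie2 and the build GRCm38.p6 appear in the submitters' processing notes. Strand use and the counting tool: not given in the sources used here. A table of 8 columns that match no sample label was not used.

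Counts were rounded and tested with edgeR 4.0.16 in R 4.3.3 (filterByExpr, TMM, robust quasi-likelihood F test, Benjamini-Hochberg over 13436 genes, threshold 0.05). The total was 18685975 to 19307481 counts per tumour, and the common biological coefficient of variation was 14.7%. The SE is the fold change over the square root of F. DESeq2 1.42.0, limma 3.58.1 on log2 FPKM, other scalings and leaving out tumours were alternatives. Correlations used log2 CPM (prior count 2) with exact tests over all 40320 pairings. The tumours came from separate mice. Scripts were tested on simulated data. No library was a duplicate of another (chi-square per degree of freedom 5.25 to 71.7 between pairs).

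The 9 genes, 16 gene lists and tests were chosen with earlier results of these data known. Named from each list were up to 4 tested genes of smallest p, with Cdh1, Cdh2, Vim, Fn1, Id1, Id2, Id3, Tcf3, Tcf12 and Cxcl14 always eligible, and for each factor the 2 most alike genes of mean log2 CPM above 3. Other genes (Krt18, Crb3, Epcam, Esrp1, Adgrg1, Cdh17, Vil1, Krt20, Cdx1, Snai3) were chosen after their levels were seen.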

Additional observations from a re-analysis of the deposited data

Results flagged for a closer look

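Snai2 in control tumour 1 stood at 15.2 CPM, while controls 2 to 4 lay between 7.52 and 8.68 CPM. The gap took up 0.85 of the range of the group, above Dixon's critical value of 0.829 for 4 samples. It was the 1 such case among 18 groups of 4 values (9 factors in 2 groups), where chance gives about 1 in 20. The same tumour had the highest Prrx1, 212 CPM, and the highest Cdh1, 19.8 CPM.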

How the results depend on the processing

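Under each of the 17 alternatives, in edgeR, DESeq2 and limma, 0 of the 9 factors were called. DESeq2 called 82 genes in all and edgeR without DOX tumour 4 called 2, against 1; the other leave-one-out fits called 1. Leaving out 1 tumour gave log2 fold changes of -0.31 to -0.10 for Snai1, -0.17 to 0.24 for Snai2, -0.23 to -0.08 for Zeb1, 0.12 to 0.23 for Zeb2, -0.049 to 0.042 for Twist1, -0.015 to 0.040 for Twist2, -0.21 to 0.034 for Prrx1, 0.01 to 0.16 for Foxc2 and -0.35 to -0.16 for Tcf4; the values nearest 0 of Snai1, Zeb1, Tcf4 and Foxc2 came without DOX tumour 4. Signs turned for Snai2 without control tumour 1 or DOX tumour 2, Twist1 without control tumour 1 or DOX tumour 4, Prrx1 without control tumour 1, and Twist2 without control tumour 2 or 4 or DOX tumour 1 or 4. They also turned without both control tumour 1 and DOX tumour 4, an alternative chosen after seeing the data, for Snai2 (0.24), Twist1 (0.091) and Foxc2 (-0.053); the cause was not tested. Level steps free of overlap numbered 2 to 5. The Zeb1 and Tcf4 pair, the 1 called, gave 0 with Spearman (added after seeing the data) and 0 on deviations from group means; those deviations called 2 score relations, the macrophage score with Zeb1 (r = -0.80) and Twist1 (r = -0.66; adjusted p = 0.0469 each, exact within groups), against 0. On FPKM the first had 0.0938. Over all tumours but DOX tumours 2 and 4, r of the levels themselves was -0.32 for Zeb1 and 0.17 for Twist1. These 2 values span both groups and are not counterparts of the r on deviations, which was not recomputed without those tumours. Replicate numbers did not pair the tumours (correlations of deviations 0.001, 0.039, 0.086 and -0.024), and the replicate block changed no call: 1 gene and 0 factors, with Tcf4 at -0.25 and Zeb1 at -0.17. Their unadjusted edgeR p fell under 0.05 with that block (0.0113 and 0.0346, adjusted p = 0.3205 and 0.441). It also did so without control tumour 4 (0.016 and 0.048, adjusted p = 0.458 and 0.462). Zeb2 had an unadjusted edgeR p of 0.0136 without DOX tumour 1 (adjusted p = 0.181). Level order could not be recomputed on CPM, which is not per length. Depth was lowest for Snai2 and Foxc2, and with 4 tumours a group an exact test between the groups cannot go below 0.0286.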
